A study of Mus musculus with 2 samples.

Results

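The interleukin 1 family was followed in single-cell RNA sequencing of optic nerves from *Nf1*-OPG mice through 10 listed genes, read by symbol from the 32285 genes counted. They were 4 ligands with pro-inflammatory or alarm functions (*Il1a*, *Il1b*, *Il18* and *Il33*), 1 natural antagonist (*Il1rn*), and 5 receptor genes (*Il1r1*, *Il1r2*, *Il1rap*, *Il18r1* and *Il1rl1*). All 10 were found in the files. The mice carried *Nf1* flox/mut with GFAP-Cre on a C57BL/6 background, so 1 *Nf1* allele was mutant in every cell and the other was removed where the promoter of the astrocyte gene *Gfap* drove Cre. These mice develop low-grade optic glioma. There were 2 libraries, C-ON (titled control) and FMC_new, of the same genotype label and the same tissue label, and what "control" and "FMC new" stand for is not given in the sources used here. The protocol in the labels describes optic nerves and meningeal duras of 10 mice aged 12 weeks, taken separately and pooled, with 7-AAD sorting of live cells for the dura. The paper, in contrast, counts the libraries as individual tumors, and whether dura cells are among those sequenced here is not clear, which bears on where the immune cells and fibroblasts come from. No animal can be told from another, no second genotype is at hand, and no test between groups was made. Values are given for each library beside the other.

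Interleukin 1α and 1β are alarm cytokines that signal through the receptor *Il1r1* with its accessory chain *Il1rap*. The antagonist *Il1rn* occupies the same receptor without signalling, and the decoy receptor *Il1r2* binds the ligands but carries no signalling domain. Interleukin 18, released after cleavage by caspase 1, acts on lymphocytes through *Il18r1* and *Il18rap*, while interleukin 33 is stored in the nuclei of tissue cells, oligodendrocytes among them in the central nervous system, and acts through ST2, the product of *Il1rl1*, on type 2 innate lymphoid cells, mast cells and regulatory T cells. *Il1rap* also serves the interleukin 33 receptor.

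The files held 10845 barcodes and 85101211 UMIs (unique molecular identifiers, 1 per captured transcript) in C-ON and 21341 barcodes and 129113325 UMIs in FMC_new. After the filters of the study 8834 and 16818 cells were kept, with a median of 6810.5 and 4676 UMIs. Each library was clustered alone without the 10 genes, and 15 classes of C-ON and 21 of FMC_new were named from marker genes, of which 14 had at least 20 cells in both libraries. A class name below stands for cells that carry the markers of that type. The cells that met no name made up 6.49% of C-ON and 11.3% of FMC_new. A level is the UMIs of a gene scaled to 1000000 UMIs of a class (CPM), followed by its exact 95% Poisson interval, and a share is the percent of cells with at least 1 UMI. Both cover counting error only. Where cells were thinned to 1000 UMIs to compare shares at equal depth, 102 shallower cells of C-ON and 510 of FMC_new were left out. The libraries had 296 barcodes in common, 188 of them among kept cells.

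Oligodendrocytes, the main cells of an optic nerve, numbered 5586 in C-ON and 2603 in FMC_new, and astrocytes were named in FMC_new alone (224 cells). Among oligodendrocyte precursors, *Neu4* was a leading gene of cluster 24 of C-ON and of clusters 7 and 17 of FMC_new. *Gpr17* was a leading gene of cluster 17 of FMC_new. Neither gene led precursor clusters 27 of C-ON and 38 of FMC_new. The paper reports both genes as tumor-specific markers. No class was named as tumor cells here, and whether the precursors include them was not tested. FMC_new held 1559 cells with pituitary markers, and the growth hormone gene *Gh* was found in 99.5% to 100% of the cells of every class there, against 1 UMI in all of C-ON. The neutrophil gene *S100a8* was in 8.33% to 15.6% of the cells of other classes in FMC_new and in at most 0.242% in C-ON. The myelin gene *Mbp* was in 86.4% to 98% of the cells of classes other than oligodendrocytes in C-ON and in 93% to 100% in FMC_new, at 1302 to 4161 and 1133 to 4275 CPM against 7830 and 7857 in oligodendrocytes. Pituitary and neutrophil transcripts were thus spread over the other classes of FMC_new but hardly of C-ON, and *Mbp* over those of both libraries. How much of this is free RNA was not tested, nor was its part in low shares of *Il33*, *Il1rap* and *Il18* outside glia. The same holds for low shares of *Il1b* in lymphocytes of FMC_new.

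The 10 genes lie on 5 chromosomes (GRCm38). *Il1a* (ENSMUSG00000027399, chr2:129299610-129309972, minus strand) and *Il1b* (ENSMUSG00000027398, chr2:129364570-129371139, minus strand) are 54.6 kb apart with no other protein-coding gene between them, and *Il1rn* (ENSMUSG00000026981, chr2:24336853-24351494) is on the plus strand of the same chromosome. A row of receptor genes on the plus strand of chromosome 1 covers 478 kb. It runs from *Il1r2* (ENSMUSG00000026073, chr1:40074079-40125231) over *Il1r1* (ENSMUSG00000026072, chr1:40225080-40317257), *Il1rl2* and *Il1rl1* (ENSMUSG00000026069, chr1:40429570-40465415) to *Il18r1* (ENSMUSG00000026070, chr1:40465552-40500854) and *Il18rap*. Only 136 bases separate *Il1rl1* from *Il18r1*. *Il18* (ENSMUSG00000039217) is at chr9:50554827-50581840, *Il1rap* (ENSMUSG00000022514) at chr16:26581704-26730117 and *Il33* (ENSMUSG00000024810) at chr19:29925114-29960718, each on the plus strand. The antisense genes *Gm14023* (245 UMIs in kept C-ON cells and 769 in FMC_new) and *Il1bos* (117 and 584 UMIs) overlap *Il1a* and *Il1b* and were counted apart from them. Whether reads were counted by strand is not stated, and how far reads of these pairs were mixed was not tested.

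RefSeq lists 17 starts for the 10 genes, and the 300 bases from 250 before to 50 after each were read on the strand of the gene (GRCm38.p6). The sequence TATAAA, the core of a TATA box, stood on the gene's own strand between 35 and 20 bases before the start in 3 of the 17 (17.6%), those of *Il1a*, *Il1b* and the second start of *Il33*, against 1.75% of all 32851 listed promoters. Anywhere in the window on either strand, TATAAA was in 35.3% of the 17 and 13.6% of all promoters. The NF-kB pattern (GGG, any 5 bases, CC), searched on both strands, was in 35.3% of the 17, for *Il1rn*, *Il1r1*, *Il1rap* and *Il18r1*, and in 50.8% of all promoters. The pattern of interferon-stimulated genes (GAAA, any 2 bases, GAAA), also searched on both strands, was in the *Il1rap* promoter and in 3.44% of all. Of the 17, 12 held fewer CpG than the median promoter (7), while that of *Il1rap* held 33, more than 91.4% of all promoters. A match is a description of the letters and no evidence of a bound site. The promoters of the ligands that were most restricted to a class, and of *Il1rap* as the CpG-rich one, are printed 5′ to 3′ on the strand of the gene, with TATAAA in capitals. Their places are chr2:129309923-129310222 (*Il1a*, minus strand), chr2:129371090-129371389 (*Il1b*, minus strand), chr19:29924863-29925162 and chr19:29945540-29945839 (*Il33*, first and second start, plus strand) and chr16:26581455-26581754 (*Il1rap*, plus strand).
Il1a promoter: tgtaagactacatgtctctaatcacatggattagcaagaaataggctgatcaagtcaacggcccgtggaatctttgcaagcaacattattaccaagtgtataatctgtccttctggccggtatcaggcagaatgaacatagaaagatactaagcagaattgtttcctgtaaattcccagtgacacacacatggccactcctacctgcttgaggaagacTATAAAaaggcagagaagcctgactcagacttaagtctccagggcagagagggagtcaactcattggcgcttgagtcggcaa
Il1b promoter: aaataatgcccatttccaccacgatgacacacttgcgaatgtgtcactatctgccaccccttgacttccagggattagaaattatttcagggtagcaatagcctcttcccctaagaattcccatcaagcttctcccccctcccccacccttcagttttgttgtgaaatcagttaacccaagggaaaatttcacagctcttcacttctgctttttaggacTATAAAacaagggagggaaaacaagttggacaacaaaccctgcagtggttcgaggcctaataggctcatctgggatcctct
Il33 promoter, first start: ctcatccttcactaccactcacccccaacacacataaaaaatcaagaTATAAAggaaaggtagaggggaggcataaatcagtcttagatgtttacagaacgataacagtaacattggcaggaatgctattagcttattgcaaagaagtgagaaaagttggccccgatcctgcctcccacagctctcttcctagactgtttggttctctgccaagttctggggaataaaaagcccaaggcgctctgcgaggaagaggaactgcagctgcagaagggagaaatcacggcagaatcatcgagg
Il33 promoter, second start: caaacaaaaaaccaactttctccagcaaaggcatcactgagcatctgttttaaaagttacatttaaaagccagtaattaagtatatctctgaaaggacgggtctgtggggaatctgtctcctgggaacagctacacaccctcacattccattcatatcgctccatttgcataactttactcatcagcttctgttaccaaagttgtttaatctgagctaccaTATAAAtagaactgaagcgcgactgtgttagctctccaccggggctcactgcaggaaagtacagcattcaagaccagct
Il1rap promoter: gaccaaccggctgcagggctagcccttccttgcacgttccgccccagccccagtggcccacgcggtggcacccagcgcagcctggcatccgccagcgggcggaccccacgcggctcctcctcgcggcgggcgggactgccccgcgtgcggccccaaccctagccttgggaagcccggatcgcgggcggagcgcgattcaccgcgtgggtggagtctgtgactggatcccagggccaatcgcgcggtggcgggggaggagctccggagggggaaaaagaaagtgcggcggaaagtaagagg

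*Il1a*, *Il1b* and *Il1rn* were highest in myeloid cells, *Il18*, *Il33* and *Il1rap* in cells of the oligodendrocyte lineage, and *Il18r1* in lymphocytes. For *Il18* the astrocytes of FMC_new, not a shared class, stood higher (122.1 CPM), with an overlapping interval. *Il1r2* was highest in type 2 dendritic cells among the shared classes and in neutrophils among the other named classes, with a higher level (1821 CPM, 1626 to 2034) in a gate of 35 cells of FMC_new with markers of type 2 innate lymphoid cells. *Il1rl1* and *Il1r1* were scarce in the shared classes and rich in small sets of cells described below. For 7 of the 10 genes the same shared class was highest in both libraries, against 52.0% of the 14589 genes with at least 50 UMIs in each library. For 3 of the 10, *Il1a*, *Il1b* and *Il1r2*, that class was also at least 4 times the next one in each library, against 7.99% of the genes. The exceptions to a shared highest class were *Il1r1*, *Il18* and *Il1rl1*. Over the 14 shared classes the correlation of a gene's log2 level between the libraries ran from 0.586 (*Il1rl1*) to 0.953 (*Il1r2*), as a description of classes that share libraries and clustering.

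**Figure D1:**
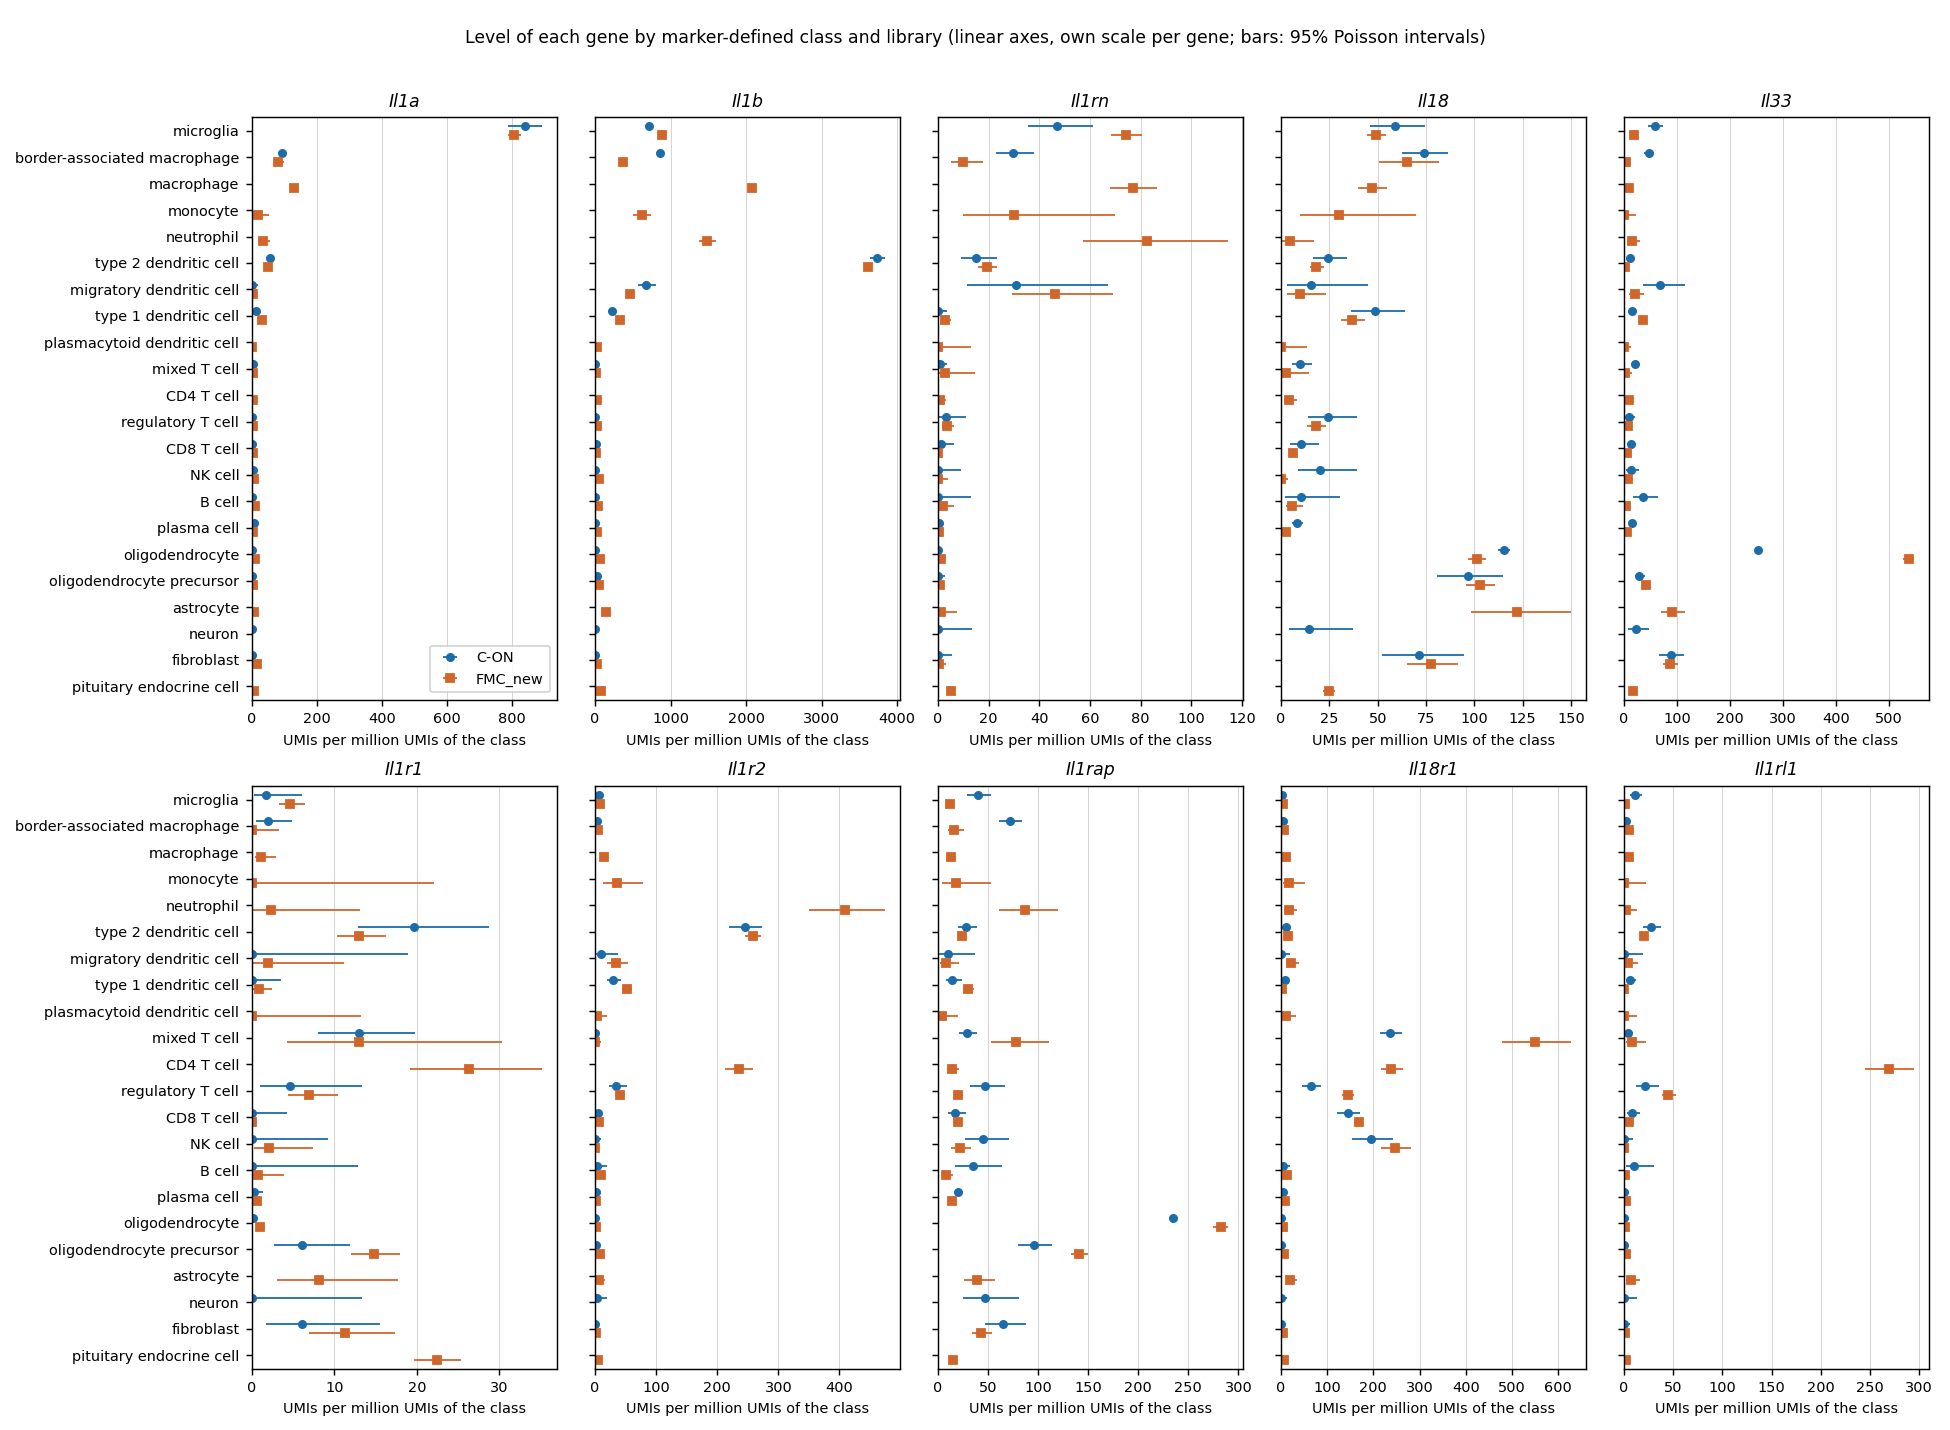
Level of each of the 10 genes by class (rows) in C-ON (blue circles) and FMC_new (orange squares), in CPM on linear axes with a scale of their own for each gene, with 95% Poisson intervals as bars. *Il1a* stood out in microglia (838.9 and 806.4), *Il1b* in type 2 dendritic cells (3736 and 3617) and *Il33* in oligodendrocytes (252.4 and 537.3).

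*Il1a* was a transcript of microglia, the resident macrophages of nervous tissue. In 203 microglia of C-ON its level was 838.9 (787.6 to 892.6), with UMIs in 65.5% of cells, and in 1455 of FMC_new it was 806.4 (786.6 to 826.7), with UMIs in 59.2%. Microglia held 74.9% of all *Il1a* UMIs of C-ON and 78.7% of those of FMC_new, and single cells had up to 31 and 61 UMIs. The next shared class, border-associated macrophages, stood at 93.3 and 79.4, so that microglia were 8.99 and 10.2 times as high. Macrophages of FMC_new, a class not named in C-ON, had 128.6. Type 2 dendritic cells had 54.4 and 49.9, neutrophils 33.0, and type 1 dendritic cells 12.4 and 29.9. Migratory dendritic cells had 0 UMIs in C-ON and 2 in FMC_new, and oligodendrocytes 0.43 and 9.0 CPM. The microglia carried their defining genes *P2ry12* (in 82.8% and 75.9% of cells), *Tmem119* (80.3% and 75.4%) and *Sall1* (33% and 32%).

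*Il1b*, made as a precursor that caspase 1 cleaves, had a different order. Type 2 dendritic cells led with 3736 (3633 to 3842) in 169 cells of C-ON and 3617 (3569 to 3665) in 824 cells of FMC_new. It was in 93.5% and 87.3% of these cells, with a median of 25 and 20 UMIs per cell, and they held 59.7% and 49.2% of all its UMIs. With every cell thinned to 1000 UMIs the shares were 80.5% and 77.8%. The class carried *Mgl2* in 86.4% and 75.6% of cells, *Cd209a* in 85.2% and 64.9%, *Flt3* in 54.4% and 49%, and *Clec10a* in 49.1% and 47.2%. Of the genes listed for monocytes, *Ccr2* was in 57.4% and 48.1%, *Ly6c2* in 8.88% and 21.2%, and *Fn1* in 2.37% and 1.94%. The macrophage gene *C1qa* was in 11.8% and 24.3%.

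The second place differed between the libraries. In C-ON border-associated macrophages (857.6 of *Il1b*) were above microglia (711.9), and in FMC_new microglia (890.5) were above border-associated macrophages (368.9). The border-associated class is a different mixture in each library. Its 8 markers were in a median of 35.1% of cells in C-ON and 72.8% in FMC_new, where a class of macrophages stood apart. These macrophages of FMC_new reached 2082, in 64.8% of cells, and neutrophils 1483, in 47.5%. Migratory dendritic cells had 678.7 and 463.8, monocytes of FMC_new 615.9, and type 1 dendritic cells 225.0 and 326.4. Among lymphocytes of FMC_new 5.0% to 6.3% of cells had an *Il1b* UMI, beside 0 to 0.55% of T and NK cells in C-ON. The 49 B cells of C-ON, not in that range, had 1 UMI. Oligodendrocytes had 1.6 in C-ON and 63.5 in FMC_new. Of the 1242 UMIs in the latter, 902 came from cluster 12, whose 502 cells had a median of only 1588.5 UMIs and a level of 572.2, while the lowest oligodendrocyte cluster of that library, cluster 16, had 6.48.

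The share of *Il1b* in the UMIs of the pair of ligands separated microglia from other myeloid cells. It was 45.9% and 52.5% in microglia, 90.2% and 82.3% in border-associated macrophages, 94.2% in macrophages, 97.8% in neutrophils, 98.6% in type 2 dendritic cells of C-ON, and 100% and 99.1% in migratory dendritic cells. The balance also differed among microglia. In C-ON cluster 22 (147 cells) *Il1a* stood at 668.6 and *Il1b* at 220.9, and in cluster 34 (56 cells, led by *Cxcl13* and *Apoc1*) at 1052 and 1326. In FMC_new cluster 2 (895 cells) they stood at 937.5 and 1021, and in cluster 11 (560 cells with a median of 1894.5 UMIs) at 178.8 and 263.7. In each library the cluster with more *Il1a* also had more *Il1b*.

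**Figure D2:**
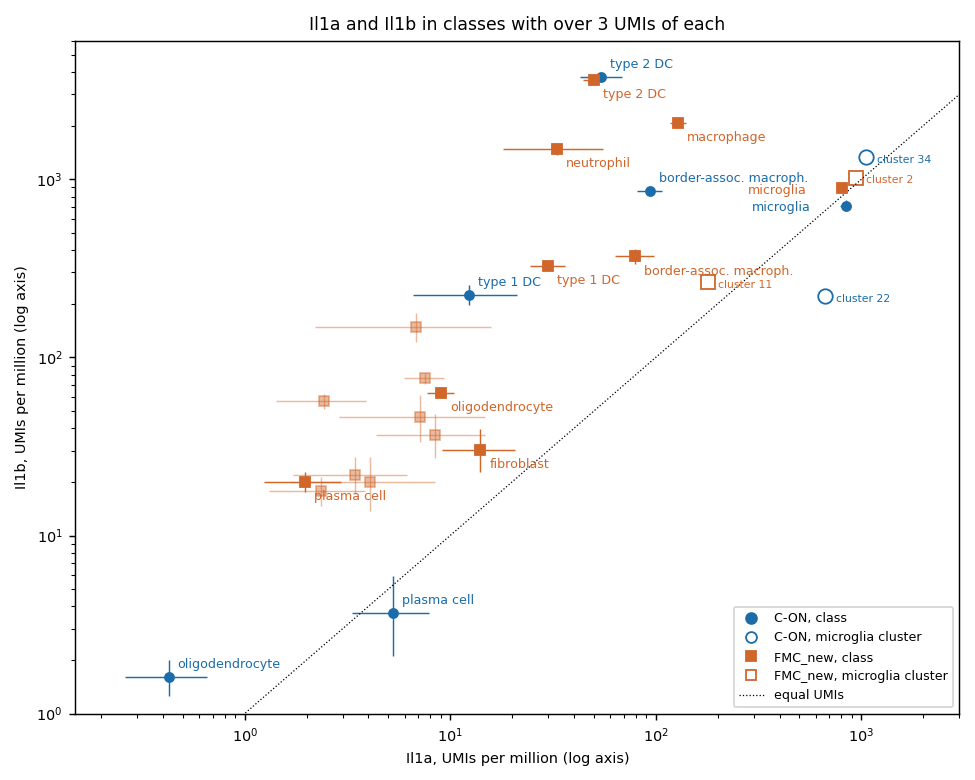
*Il1b* against *Il1a* in CPM on log axes, for classes with over 3 UMIs of each gene (filled symbols, with 95% Poisson intervals) and for single microglia clusters (open symbols). Pale symbols are further classes of FMC_new without a name in the plot. The dotted line marks equal UMIs of both genes, and among myeloid classes microglia lie nearest to it, with cluster 22 of C-ON to its right, as are the plasma cells of C-ON with 23 UMIs of *Il1a* and 16 of *Il1b*.

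Microglia with an *Il1b* UMI more often had an *Il1a* UMI as well, in 86.4% and 82.7% of them against 55.5% and 43.9% of those without. At 1000 UMIs per cell the shares were 51.3% and 51.3% against 41.4% and 30.2%. Genes of the early response (9 listed, such as those of the AP-1 factors, which also rise when tissue is dissociated) summed to 16688 and 16815 CPM in microglia, 13060 and 16601 in border-associated macrophages, 10205 and 10422 in type 2 dendritic cells, and 389 and 1234 in oligodendrocytes. When microglia were divided at the median of this sum, the higher part of C-ON had 933.4 of *Il1a* and 422.7 of *Il1b* and the lower part 764.8 and 938.7. In FMC_new the higher part had 1031 and 1022, and the lower 468.4 and 692. The parts of FMC_new also differed in depth, with a median of 6052 UMIs in the higher and 2443 in the lower, and cluster 2 had 19248 of the early genes against 5168 in the shallow cluster 11. In type 2 dendritic cells *Il1b* was 3782 against 3698 in C-ON and 4144 against 3115 in FMC_new. The part of dissociation in these levels was not tested.

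*Il1rn*, the antagonist, was rarer and shared its cells with the ligands. Microglia had 47.1 (35.6 to 61.1) and 74.1 (68.2 to 80.4), with UMIs in 8.37% and 10.9% of cells, and held 36.1% and 48.3% of its UMIs. Border-associated macrophages had 29.7 and 9.92, and in C-ON they held 40.0% of the UMIs. Migratory dendritic cells had 30.8 and 46.0, from 6 and 23 UMIs, and type 2 dendritic cells 15.1 and 19.3. In FMC_new neutrophils (82.4, in 21.3% of cells) and macrophages (76.8) stood beside microglia with overlapping intervals. Lymphocyte classes of either library had at most 11 UMIs each. Within the UMIs of *Il1rn* and *Il1b* together the antagonist made up 6.2% (4.72 to 7.98) and 7.69% (7.09 to 8.31) in microglia, 3.34% and 2.62% in border-associated macrophages, 3.56% in macrophages and 5.26% in neutrophils. In type 2 dendritic cells of C-ON it made up 0.403%, and in type 1 dendritic cells of C-ON 0 of 236 UMIs. The microglia clusters again differed, with 4.5 CPM of *Il1rn* in C-ON cluster 22, 100.3 in cluster 34, 84.6 in FMC_new cluster 2 and 23.8 in cluster 11, the same order as for *Il1b*.

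*Il18* was spread over glia and macrophages. In oligodendrocytes, the myelin-forming cells, it stood at 115.1 (112 to 118.2) in 5586 cells of C-ON and 101.2 (96.8 to 105.8) in 2603 cells of FMC_new, with UMIs in 55.2% and 45.1% of cells. Oligodendrocyte precursors had 96.7 and 102.9, and astrocytes of FMC_new 122.1 (98.2 to 150.1). These 3 classes could not be ordered, since their intervals overlap in FMC_new and the order of the first pair turned between the libraries. Below them came fibroblasts (71.1 and 77.5), border-associated macrophages (73.7 and 64.9), microglia (58.8 and 49.3) and type 1 dendritic cells (48.6 and 36.8). NK cells had 8 UMIs in C-ON and 0 in FMC_new. Oligodendrocytes held 88.0% of its UMIs in C-ON, where they were most of the cells, and 43.5% in FMC_new. Among oligodendrocyte clusters the highest level was 1.98 times the lowest in C-ON and 1.59 times in FMC_new. Of the UMIs of *Il18* and of its soluble inhibitor *Il18bp* together, the inhibitor made up 9.46% and 13.7% in oligodendrocytes and 65.9% and 50.9% in microglia.

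*Il33* was a transcript of oligodendrocytes, which held 94.9% and 86.9% of its UMIs. Its level was 252.4 (247.9 to 257) in C-ON and 537.3 (527.1 to 547.7) in FMC_new, with UMIs in 44.9% and 59.4% of cells and in 19.6% and 32.7% at 1000 UMIs per cell. Single oligodendrocytes had up to 47 and 63 UMIs. Fibroblasts followed with 87.8 and 87.1, in 30.7% and 34.0% of cells, and astrocytes of FMC_new with 90.9. Oligodendrocyte precursors had only 28.7 and 42.1, unlike for *Il18*, where precursors and mature cells were close. Microglia had 58.0 in C-ON and 18.4 in FMC_new, and border-associated macrophages 46.9 and 3.6. *Mbp* stood at 2192 and 2563 in the same microglia and at 3436 and 2668 in the same border-associated macrophages.

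The clusters within oligodendrocytes were far apart in *Il33*. In C-ON they ran from 5.0 in cluster 4 (431 cells, led by *Art3*, *Tubb2b* and *Npb*, with a median of 13261 UMIs) and 12.2 in cluster 9 (led by *Nkx2-9*) over 443.6 in cluster 0 (led by *Ptgds*) to 886.1 in cluster 7 (with *Klk8*, *Plvap* and *Iigp1* leading) and 912.8 in cluster 32 (with the interferon-induced GTPase gene *Irgm2* leading), a ratio of 182. In FMC_new they ran from 54.9 in cluster 16 (led by *Nkx2-9*) to 990.9 in cluster 13 (*Plvap*, *Klk6* and *Iigp1*), a ratio of 18.1. In both libraries a cluster led by *Nkx2-9* was thus among the low ones and a cluster with *Plvap* and *Iigp1* leading among the high ones.

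**Figure D3:**
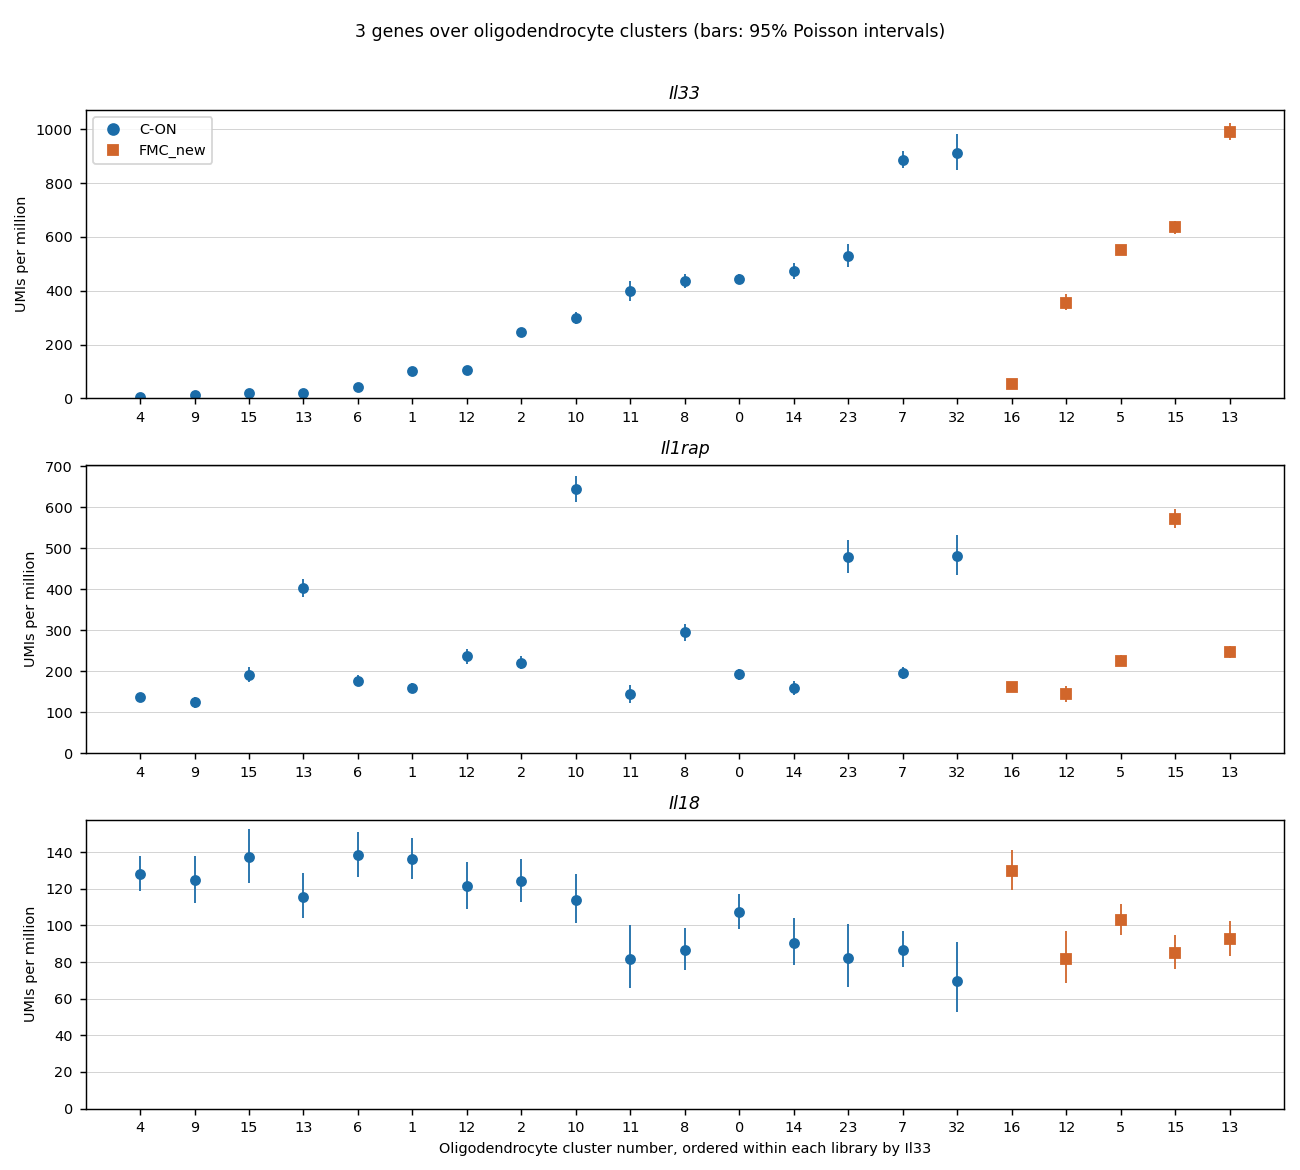
Levels of *Il33*, *Il1rap* and *Il18* in CPM (with 95% Poisson intervals) over the oligodendrocyte clusters of C-ON (blue) and FMC_new (orange), ordered within each library by *Il33*. *Il33* ran from 5.0 to 912.8 in C-ON while *Il18* stayed between 69.9 and 138.4 and tended downward, and *Il1rap* was highest in clusters 10 of C-ON and 15 of FMC_new.

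Single cells gave the same division. Oligodendrocytes with a UMI of *Iigp1*, an interferon-induced GTPase, had *Il33* in 46.2% and 45.9% at 1000 UMIs per cell, against 17.7% and 30.2% of those without. For *Plvap* the shares were 59% and 52.9% against 19.4% and 32.3%, and for *Ptgds*, which encodes prostaglandin D synthase, 32.3% and 45.4% against 11.4% and 22.7%. For *Nkx2-9*, a homeobox gene, they turned round, with 2.08% and 4.17% against 19.9% and 33.0%. These genes were picked because they led clusters, once that was known. Over the 16 oligodendrocyte clusters of C-ON *Il33* and *Il18* ran in opposite directions (Pearson −0.87, Spearman −0.85, and −0.87 over 14 clusters without the 2 farthest from the median), and *Il33* and *Il1rap* were only loosely related (0.32, 0.5 and 0.28). The clusters come from 1 library and share its depth and free RNA, so these are descriptions. In single cells the opposition of *Il33* and *Il18* was small in C-ON. At 1000 UMIs per cell *Il33* was in 18.2% and 26.1% of the oligodendrocytes with *Il18* and in 19.8% and 33.4% of those without.

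**Figure D4:**
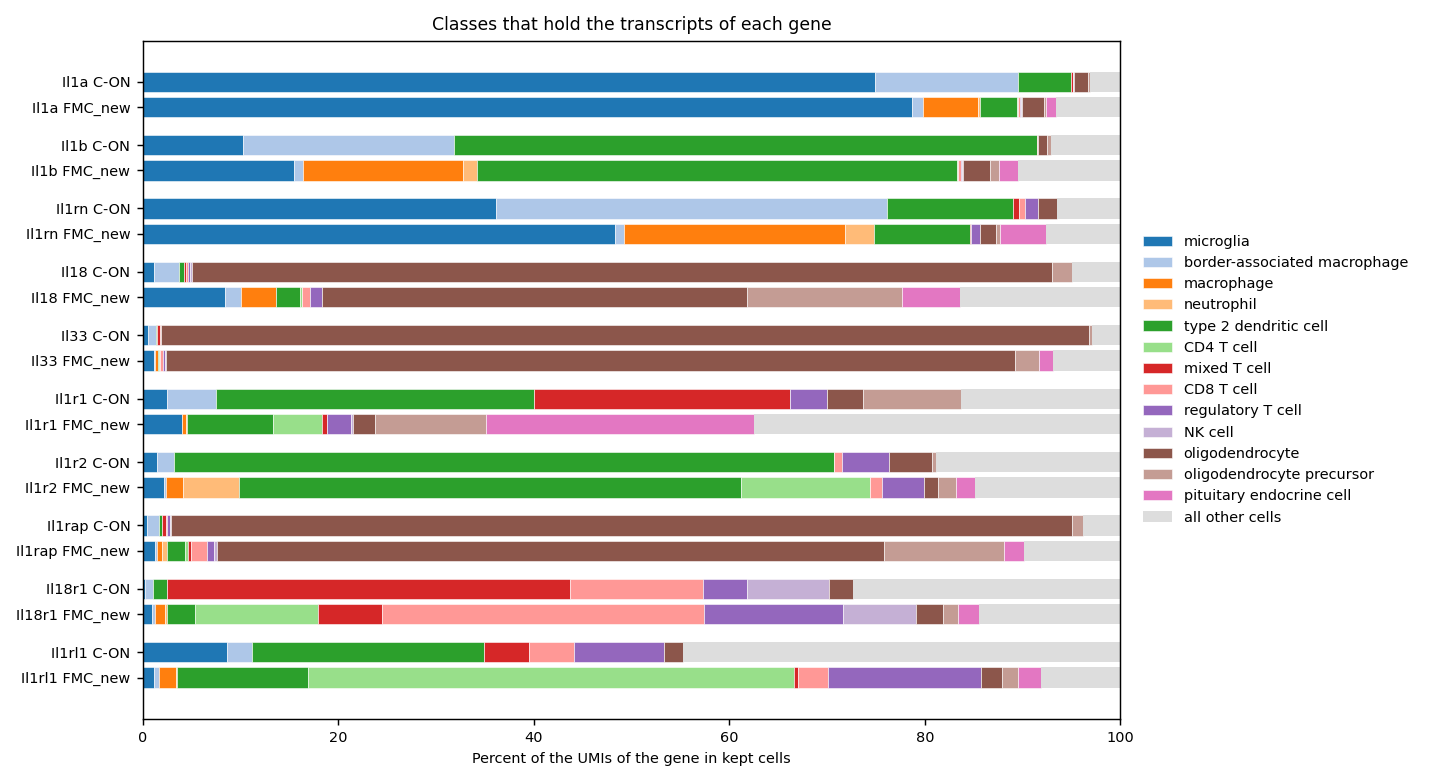
Percent of the UMIs of each gene in kept cells (horizontal axis) that came from each class (colors), with C-ON above FMC_new for each gene. *Il33* and *Il1rap* came mainly from oligodendrocytes in both libraries (94.9% and 86.9%, and 92.2% and 68.3%), *Il1a* from microglia (74.9% and 78.7%), and *Il1rl1* from no single class in C-ON.

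*Il1rap*, the accessory chain of the receptors for interleukins 1 and 33, was also led by oligodendrocytes. Its level there was 235.2 (230.8 to 239.6) in C-ON and 282.4 (275 to 290) in FMC_new, with UMIs in 73.3% and 69.2% of cells, which held 92.2% and 68.3% of all its UMIs. Oligodendrocyte precursors followed with 95.9 and 141.2, so that oligodendrocytes were 2.45 and 2 times as high. Neutrophils of FMC_new had 87.1, mixed T cells 29.0 and 77.8, fibroblasts 65.1 and 43.3, and border-associated macrophages 71.8 and 16.2. Oligodendrocyte clusters ran from 124.3 (cluster 9) to 643.9 (cluster 10, with *Grm7*, *Pakap* and *Kirrel3* leading) in C-ON and from 144.0 (cluster 12) to 572.9 (cluster 15, with *Pakap* leading) in FMC_new. At 1000 UMIs per cell *Il1rap* was in 26.1% and 32.6% of the oligodendrocytes with *Pakap* and in 19.1% and 19.7% of those without. The partner chain *Il1r1*, in contrast, had 3 UMIs in the 5586 oligodendrocytes of C-ON and 20 in the 2603 of FMC_new, and *Il1rl1* had 3 and 20.

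*Il1r1*, the signalling receptor for interleukins 1α and 1β, was the scarcest of the 10, with 80 UMIs in all kept cells of C-ON and 903 in FMC_new. Type 2 dendritic cells had 19.65 (12.8 to 28.8) and 13.01 (10.3 to 16.2), with UMIs in 9.47% and 7.89% of cells. Mixed T cells had 12.95 and 12.97, oligodendrocyte precursors 6.04 and 14.76, and fibroblasts 6.05 and 11.2. The highest shared class therefore changed from type 2 dendritic cells in C-ON to precursors in FMC_new. In FMC_new the intervals of both classes overlapped, and in C-ON that of the precursors (2.61 to 11.9) lay below that of the dendritic cells. CD4 T cells of FMC_new, a class that includes 10 of the 13 gated γδ T cells described below, had 26.3. The 1651 CD8 T cells of that library had 0 UMIs, which allows up to 3. Many UMIs of FMC_new came from cells with pituitary genes. An unnamed cluster, number 42, of 73 cells led by *Pappa2* and *Ghrhr* had 315.6 (278.2 to 356.6), with UMIs in 83.6% of its cells, and pituitary cluster 24 (246 cells, with *Gh*, *Prl* and *Pou1f1*) had 69.3. Pituitary cells held 27.4% of the *Il1r1* UMIs of FMC_new, and the pituitary is no part of the optic nerve.

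Endothelial cells, which carry *Il1r1* in many tissues, were nearly missing. Only 2 cells of C-ON and 9 of FMC_new had 4 or more of 8 endothelial markers, with 1 and 6 UMIs of *Il1r1*, and no cell met the gate for mural cells. The gate for γδ T cells (*Cd3e* with at least 4 of 9 markers such as *Trdc*, *Cd163l1* and *Il23r*) took 11 and 13 cells. Of these 54.5% (23.4 to 83.3) and 84.6% (54.6 to 98.1) had *Il1r1*, at 281.1 and 334.7 CPM. They were 0.125% and 0.0773% of the cells and held 13.8% and 2.21% of the UMIs of the gene. In C-ON 10 of the 11 cells were in the mixed T class, so that the 11 UMIs of the gate stand beside 21 in that whole class of 452 cells. In FMC_new 10 of the 13 cells were in the CD4 T class, so that the 20 UMIs of the gate stand beside 45 in that whole class of 576 cells. In the cells of the γδ gate *Il18r1* was found in 81.8% and 76.9%, and *Il1r2* and *Il1rl1* in none.

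*Il1r2* encodes the decoy receptor. Type 2 dendritic cells had 244.9 (218.9 to 273) and 258.7 (246 to 271.8), with UMIs in 55.6% and 51.8% of cells and 67.6% and 51.4% of all its UMIs, 7.01 and 4.99 times the next shared class. Neutrophils of FMC_new had 409.6 (351 to 475.2), in 54.1% of cells. Regulatory T cells had 34.9 and 41.1, type 1 dendritic cells 29.6 and 51.9, and NK and mixed T cells 0 UMIs in both libraries. The 402 UMIs of CD4 T cells in FMC_new (235.0 CPM) were in only 5.90% of the cells, with up to 91 in a single cell, and without the cells of the type 2 innate lymphoid gate the level was 55.35. Counts of *Il1r2* and *Il1r1* within a class were 324 and 26 UMIs in type 2 dendritic cells of C-ON, 174 and 1 in neutrophils, 54 and 4 in macrophages, 58 and 103 in oligodendrocyte precursors of FMC_new, and 0 and 21 in mixed T cells of C-ON. Type 2 dendritic cells with *Il1b* had *Il1r2* in 56.3% and 55.1% against 45.5% and 29.5% of those without. At 1000 UMIs per cell the shares were 16.2% and 22.3% against 24.2% and 10.4%, so that the direction in C-ON turned with depth.

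*Il18r1*, the ligand-binding chain of the interleukin 18 receptor, was a lymphocyte gene. Mixed T cells, a class with *Cd3e* in 90.7% and 81.7% of cells and both *Cd4* and *Cd8a* cells, had 236.8 (213.7 to 261.7) and 549.8 (478.3 to 629). NK cells had 194.2 and 247.8, CD8 T cells 144.4 and 168.0, CD4 T cells of FMC_new 239.1, and regulatory T cells 63.8 and 144.9. The mixed T cells are not the same cells in both libraries, since the class is cluster 3 in C-ON (led by *Cd40lg*, *Thy1* and *Ifng*) and cluster 35 in FMC_new (with *Grap2*, *Themis* and *Camk4* among the leading genes). Shares of cells ran from 42.0% and 57.5% in mixed T cells and 44.7% and 45.6% in NK cells to 2.04% and 3.45% in B cells. Within mixed T cells 57.5% and 86.4% of the cells with *Cd4* but no *Cd8a* had *Il18r1*, against 33.3% and 48.3% of those with *Cd8a* but no *Cd4*. NK cells with its partner chain *Il18rap* had it in 61% and 54.8%, against 33.9% and 37.8% of those without, and at 1000 UMIs per cell in 37.5% and 34% against 19.8% and 17.4%. In mixed T cells the latter shares were 21.4% and 26.3% against 19.7% and 35.6%, so that the direction turned in FMC_new. Unnamed cluster 28 of C-ON (95 cells, led by *Themis*, *Mctp2* and *Camk4*), which shares these leading genes with the mixed T cells of FMC_new, had 502.3. Oligodendrocytes, the class with the most *Il18* UMIs in both libraries, had 0.49 and 4.70 of the receptor.

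*Il1rl1*, which encodes the interleukin 33 receptor ST2, was scarce, with 152 UMIs in C-ON and 925 in FMC_new. Type 2 dendritic cells had 27.2 and 20.4, in 18.9% and 12.1% of cells, and regulatory T cells 21.3 and 45.2, in 4.48% and 5.72%. Regulatory T cells with a *Foxp3* UMI had *Il1rl1* in 7.69% (2.54 to 17) and 9.31% (6.23 to 13.3). Those without had it in 2.94% (0.807 to 7.36) and 4.38% (3.05 to 6.06). The intervals overlap in C-ON, and these shares of *Il1rl1* were not compared at equal depth. CD4 T cells of FMC_new, a class in which *Cd3e* was found in 74.0% of cells and *Gata3* in 20.8%, had 269.5 and held 49.8% of its UMIs. Without the 30 cells of the class that met the gate for type 2 innate lymphoid cells the level was 131.9, from 205 UMIs in 40 of 546 cells. In C-ON unnamed cells held 38.8% of the UMIs.

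Type 2 innate lymphoid cells and mast cells, known responders to interleukin 33, were few and had its receptor more often than the classes did. The gate for type 2 innate lymphoid cells (at least 4 of 9 markers such as *Gata3*, *Il5*, *Il13* and *Areg*, and no *Cd3* transcript) took 8 cells of C-ON and 35 of FMC_new. Of these 62.5% (24.5 to 91.5) and 88.6% (73.3 to 96.8) had *Il1rl1*. They were 0.0906% and 0.208% of the cells and held 6.58% and 29.0% of its UMIs. *Il1r2* had 0 UMIs in the 8 cells of C-ON and 316 in the 35 of FMC_new, in 51.4% of them, and *Il1r1* had 0 in both. When both libraries were integrated and clustered together, a class given this name on the pooled cells appeared, with 28 and 69 cells. *Gata3* was in 46.4% and 69.6% of them, but *Il13* in 3.57% and 31.9% and *Il5* in 3.57% and 11.6%, so that the C-ON part carried few of these markers. *Il1r1*, unlike in the gate, was in 10.7% and 8.7% of the cells of this class. This class had 298.3 (199.8 to 428.4) and 1206 (1084 to 1337) of *Il1rl1*, in 50% and 73.9% of cells. It had 0 and 971.4 of *Il1r2*, with *Cd3e* in 7.14% and 4.35%. All 3 mast cells of C-ON and all 4 of FMC_new, taken by markers such as *Cpa3* and *Cma1*, had *Il1rl1*, with 3 and 16 UMIs. The 3 and 2 cells that were 1 marker short of the mast cell gate had 0 UMIs.

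**Figure D5:**
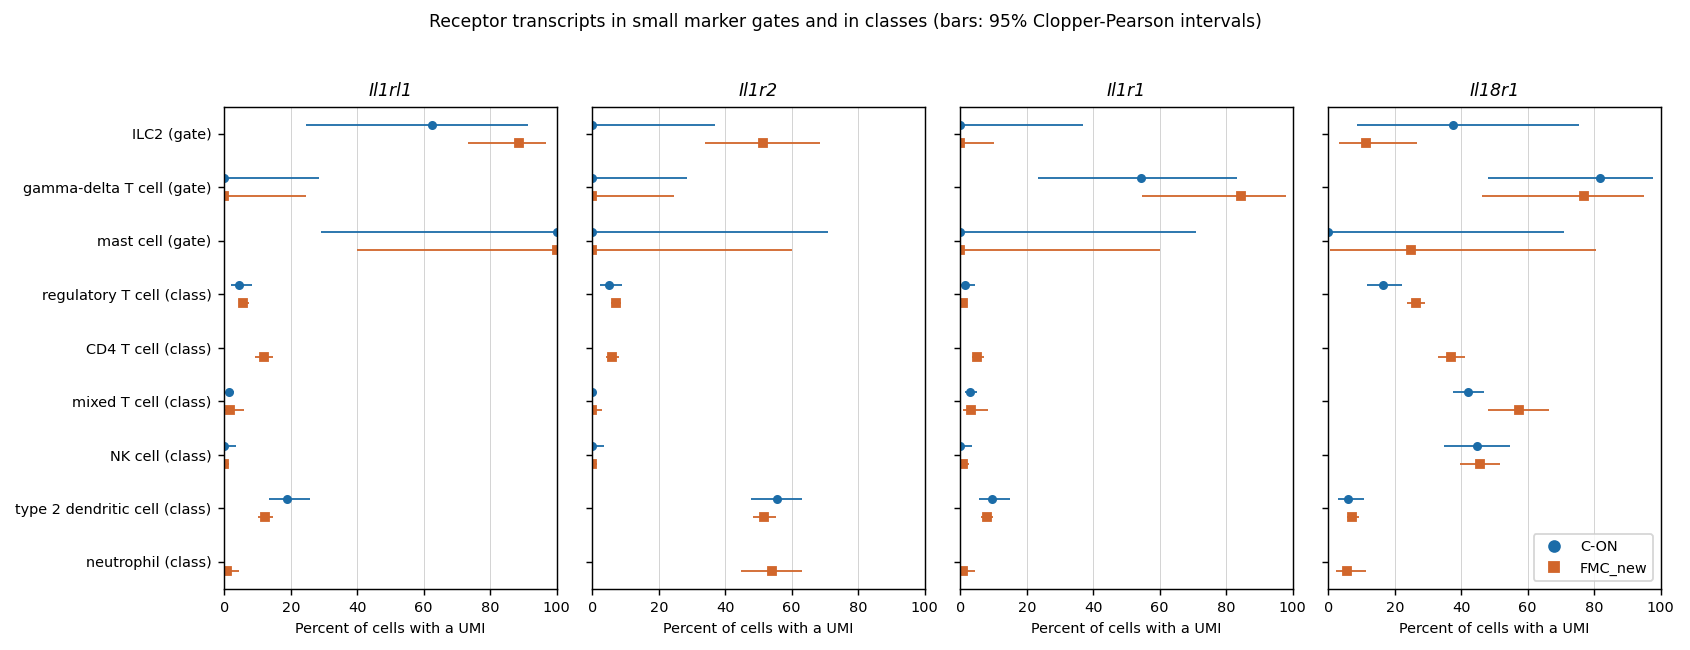
Percent of cells with a UMI of 4 receptor genes (horizontal axes, with 95% Clopper-Pearson intervals) in small marker gates and in classes, for C-ON (blue) and FMC_new (orange). *Il1rl1* was in 62.5% and 88.6% of the innate lymphoid gate and *Il1r1* in 54.5% and 84.6% of the γδ T cell gate, where the wide intervals come from 8 to 35 cells, while *Il1r2* was in over 50% of type 2 dendritic cells and neutrophils.

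For each of the 10 genes the genes whose log2(CPM + 1) over the 15 classes of C-ON and the 21 of FMC_new were most like it were taken by the lower of both correlations, over 14588 genes. They were *Fcgr4* for *Il1a* (0.904 in C-ON and 0.894 in FMC_new), *Tlr13* for *Il1b* (0.944 and 0.939), *Osm* for *Il1rn* (0.9 and 0.866), *Nfix* for *Il18* (0.897 and 0.885), *Cd81* for *Il33* (0.764 and 0.772), *Pllp* for *Il1rap* (0.896 and 0.87), *Skap1* for *Il18r1* (0.962 and 0.97), *Galm* for *Il1rl1* (0.771 and 0.681), *Dhrs9* for *Il1r2* (0.76 and 0.69) and *Mmp11* for *Il1r1* (0.704 and 0.614). After *Tlr13*, *Il1b* was next most like *Ptafr* and *Nlrp3*, the sensor of the inflammasome that activates caspase 1. *Il1rap* was next most like *Omg* and *Psat1*. The likeness was lowest for the receptors *Il1r1*, *Il1rl1* and *Il1r2*.

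The rest of the pathway was read from a list of 39 genes, of which 30 had at least 50 UMIs in each library and 20 of those had the same highest shared class in both, beside 52.0% of all genes tested. By role these were 1 of 1 further ligands and regulators, 3 of 4 further receptors, 5 of 8 inflammasome genes, 5 of 10 signalling genes and 6 of 7 induced targets. The ligands *Il36a*, *Il36b* and *Il1f10* and the antagonist *Il36rn* had 0 UMIs in both libraries, and *Il36g* had 3 and 75, with 169.5 CPM in neutrophils. Among the shared classes microglia led for *Il18bp* (113.5 and 51.1), the interleukin 36 receptor gene *Il1rl2* (30.3 and 34.1), *Nlrp3* (266.5 and 210.6) and *Casp4* (205.1 and 168.5). For *Il18bp* the next class of FMC_new was close, at 47.98. *Il18rap* was highest in NK cells of C-ON (149.4) and mixed T cells of FMC_new (246.4), the inhibitory receptor gene *Sigirr* in regulatory T cells (56.2 and 58.3), and *Il1rapl1* in oligodendrocyte precursors (799.9 and 677.4).

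*Casp1*, which encodes the protease that matures interleukins 1β and 18, stood at 83.8 and 82.3 in B cells, a class with 1 and 52 UMIs of *Il1b*, but the first value rests on 24 UMIs and the next class of FMC_new had 82.07, a tie. *Gsdmd*, which encodes the pore through which both leave the cell, stood at 108 and 114 in migratory dendritic cells, with the next class at 98.34 and 110.7. The adaptor gene *Myd88* stood at 79.35 and 78.21 in type 2 dendritic cells, with another class at 79.01 in C-ON, so that it had no clear leader there. *Irak2* was highest in NK cells (229.1 and 301.1) and *Traf6* in migratory dendritic cells (138.8 and 118). Of the induced targets *Ptgs2* was highest in type 2 dendritic cells (131.5 and 146), *Cxcl1* (117.7 and 117.2) and *Cxcl2* (1316 and 1552) in border-associated macrophages, *Icam1* in microglia (575.8 and 594.7), *Nfkbia* in migratory dendritic cells (2247 and 2049), *Tnfaip3* in mixed T cells (706.2 and 1595) and *Il6*, with 46 and 271 UMIs in all, in migratory dendritic cells (36.0 and 24.0). In C-ON the next class was close for *Icam1* (555.3) and *Tnfaip3* (668.4), and the values of *Il6* rest on 7 and 12 UMIs.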

How the data were processed

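Raw UMI counts per gene and barcode were deposited by the authors without normalization, made with Cell Ranger 7.2.0 per the labels (the methods of the study name another version) on the mouse genome build mm10. Whether intronic reads were counted, and whether by strand, is not given in the sources used here. A barcode was kept with 500 to 5000 genes, a total of 500 to 20000 UMIs and a mitochondrial part under 5%, and doublets were left in. Each library was clustered alone with Seurat 5.3.0 under R 4.3.3 (2000 variable features without the 10 genes, 30 components, resolution 2). A cluster could take the name of a class when 3 or more of that class's markers each reached 20% of the cells and a level 2 times the average cluster. It stayed unnamed if cell cycle genes, markers of an unrelated class, immunoglobulin genes, low depth or too few markers spoke against the name. The name macrophage was not given to clusters with 5 or more markers of microglia or border-associated macrophages. This scoring was settled with leading genes in view. Levels and shares came from pandas 2.3.3, scipy 1.17.1 and numpy 2.4.6 under Python 3.11.15, Scrublet scores from scanpy 1.11.5, and figures with matplotlib 3.10.9. A count of 0 allows up to 3 UMIs.

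Both libraries belong to 1 group of 1 genotype. Libraries were compared by their values, with no test and no p-value, since cells are not replicates and nothing says that the pools were separate. Intervals are exact 95% Poisson (levels) and Clopper-Pearson (shares) and cover counting error only. The members and the lists of markers, pathway genes and early genes were chosen with earlier results of these data known. Named genes are the 10 members, the pathway list, the 3 genes most like each member by class, and leading genes of the clusters described, the last chosen after the data were seen. The step that finds the highest class was tested on simulated data. The simulation drew both libraries from the mean profile of C-ON, without clustering or free RNA. It cannot show how the step performs on unlike libraries. Alternatives were another clustering with integration, resolution 1, a limit of 200 genes, doublet removal, equal weight for each cell, thinning to 1000 UMIs and leaving out either library.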

Additional observations from a re-analysis of the deposited data

Results flagged for a closer look

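The barcodes that the filters removed were used in no comparison, and transcripts of the family were found in them above the 3 UMIs that a count of 0 allows. In C-ON this held for 10 of the 10 genes, over 2011 removed barcodes that held 7.32% (*Il1rl1*) to 24.4% (*Il1rap*) of the UMIs of a gene in all barcodes. In FMC_new it held for 10 of the 10 genes as well, over 4523 removed barcodes with 5.13% (*Il1rl1*) to 25.5% (*Il1r1*) of the UMIs. In the barcodes with 200 to 499 detected genes that meet the other limits, 322 in C-ON and 1877 in FMC_new, *Il1b* stood at 83.3 and 172.5 CPM and *Il33* at 107.1 and 39.4.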

How the results depend on the processing

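No paired analysis was possible because both libraries belong to 1 group and their numbers only follow the order of the accessions. With 2 libraries of pooled mice and 1 genotype, no spread between animals could be had. The members with the same highest class in both libraries numbered 7, and between 5 (equal weight for each cell) and 8 (cells thinned to 1000 UMIs) over 8 alternatives. The class with the highest mean level stayed for 7 of 10 members under integration, where *Il1r1*, *Il1r2* and *Il1rl1* were highest in a class of type 2 innate lymphoid cells, for 8 at resolution 1 (*Il18r1* in NK cells, *Il1rl1* in CD8 T cells), for 8 with equal weight (*Il1rn* in migratory dendritic cells, *Il1r1* in mixed T cells) and for 9 with thinning (*Il18* in precursors). Leaving out either library kept it for 8 to 9. The members with over 50% of their UMIs in 1 class of each library numbered 4 (*Il1a*, *Il1r2*, *Il1rap* and *Il33*), and 4 to 5 over the other alternatives and 4 to 6 in either library alone. Of 118 recomputed values of single members, those without 1 library or the Scrublet calls not counted since they could not move, 107 moved by less than the spread between the libraries and 11 by more. Among the latter the level of *Il1a* in microglia, 822.7 on average, lay between 676.4 and 855.9. The 107 also hold members whose libraries differ so much that few changes could exceed the spread. *Il18r1* in mixed T cells went from 393.3 on average to 228.1 under integration, within a spread of 221.3. Scrublet called 1 and 0 cells and so did not work, and leaving out the 10% of cells with the highest scores, the shared barcodes or the innate lymphoid gate was chosen after seeing the data. The causes were not tested. At this depth *Il1r1* and *Il1rl1* are at or under 3 UMIs in many classes, which cannot be ordered.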
